A study of Mus musculus with 16 samples.

Results

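Aldo-keto reductases are enzymes that use NADPH or NADH to reduce aldehydes and ketones, or to run the reverse reaction on alcohols. The Akr1c enzymes act mainly on steroids and related hydroxy compounds, the Akr1b enzymes on sugar, lipid and retinal aldehydes, and Akr1a1 on aldehydes such as glucuronate, from which mice make ascorbate. In the gut epithelium such enzymes are known for handling hormones, dietary aldehydes and products of lipid oxidation.

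The genes described here were 9 aldo-keto reductases: Akr1c18, Akr1c12, Akr1c13, Akr1c14, Akr1c19, Akr1a1, Akr1b3, Akr1b7 and Akr1b8. The list was drawn up with results of these same GeneChips known. Akr1c18 was chosen by its difference between B. thetaiotaomicron mono-associated and germ-free mice, and what led to the choice of the others is not recorded. Every probe set annotated to them on the genome-wide mouse GeneChip was taken, which gave 11 probe sets of 45101 and covered 7 of the 9 genes. The annotation used here named no probe set for Akr1b3, aldose reductase, or for Akr1b7, and no value is given for them. The 11 probe sets comprised 4 for Akr1a1, 1 each for Akr1c18, Akr1c12, Akr1c13, Akr1c14, Akr1c19 and Akr1b8, and 1 that is annotated to both Akr1c12 and Akr1c13. A second GeneChip of the study, which carries genes of carbohydrate metabolism, had 0 probe sets annotated to any aldo-keto reductase.

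The study asked how the cecal epithelium of gnotobiotic mice responds to a prominent gut saccharolytic bacterium, to a probiotic one, and to both. Epithelium had been laser-captured from the ceca of adult NMRI mice on a polysaccharide-rich chow, which were colonized for 10 days with B. thetaiotaomicron (Bt), with B. longum (Bl) or with both species (Bt/Bl), or were kept germ-free (GF). The methods describe the animals as male. RNA of 4 mice was pooled for each of the 4 states, and each pool was amplified and hybridized on 2 GeneChips: Bt on 9130 and 9443, Bl on 9134 and 9135, Bt/Bl on 9132 and 9133, and GF on 9128 and 9129. The spread between the 2 GeneChips of a state is therefore technical, and every test below compared pools of mice. Values are linear MAS5 signals with no unit, which the authors had scaled to the same trimmed mean on each GeneChip, and signals of different probe sets are not compared with each other because each binds its own target with its own strength. In laser-captured tissue, fewer cells of a type and less RNA per cell cannot be told apart.

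Both GF GeneChips stood apart from the other 6. Xist, expressed from the inactive X chromosome, had signals from 3753 to 11176 in the colonized states, against 17157 and 22762 in GF. Eif2s3y, a Y-linked gene, had 3201 to 5657 in the colonized states, against 71.3 and 614 in GF. Of other Y-linked genes, Uty had 57.0 to 2033 in the colonized states, against 831.5 and 1113 in GF. Kdm5d had 145.2 to 1159.5, against 178.5 and 300.7 in GF, so both overlapped. Fabp6, an ileal bile acid carrier, had 1179 to 1798 in the colonized states, against 68029 and 95108 in GF. The ratio of 3' to 5' signal of the Gapdh control transcript lay between 8.93 and 17.62 in the colonized states and was 5.66 and 7.26 in GF, while that of Actb lay between 21.43 and 36.3 in the colonized states and was 36.92 and 38.78 in GF. Of the marker lists, 3 plasma cell markers summed to signals from 58234 to 110874 in the colonized states, against 154403 to 176993 in GF, and 7 stromal markers to 13677 to 28615, against 31002 to 37365 in GF. Of the plasma cell markers, Igha and Jchain were higher in GF without overlap. Sdc1 overlapped, with 35418 to 54796 in the colonized states, against 53478 and 46950 in GF. Of the stromal markers, only Col3a1 and Pdgfra were higher in GF without overlap, and the others overlapped. The 6 ileal markers, Fabp6 among them, summed to 621420 to 1061403 in the colonized states and 721898 to 848028 in GF, but most of that sum was the signal of Fabp2, at 505160.5 or more on every GeneChip. Apoa1 had 936 to 2684 in the colonized states, against 39656 and 34578 in GF, and Apob 21192 to 47778, against 86650.0 and 81167 in GF. The remaining ileal markers did not follow. Apoa4 was highest in Bt, at 10119 and 7831.5, against 5279 and 3067 in GF. Slc10a2 had 635 to 1348 in the colonized states, against 860.5 and 2817 in GF. Bt stood apart in other sums. In Bt, 5 smooth muscle markers summed to 8955 to 15101 and 6 leukocyte markers to 15024 to 16150.2. The other states had at most 6724 and 11936. Most of the sums in Bt was the signal of Acta2, at 11183 and 5992, and of Csf1r, at 12781 and 10267. The other markers of both lists overlapped between Bt and the other states. Ptprc was among them, with 538 and 922 in Bt against 601 to 1946. The 10 epithelial markers summed to 1355331 to 1580443 in Bt and 1570769 to 1580423 in Bt/Bl, both below GF at 1585299.6 to 1775409. In Bl they summed to 1774495 to 2045373. Single epithelial markers differed in direction. Epcam had 20035 and 15170 in Bt, against 26022 and 34403 in GF, while Krt18 had 27054 and 23885 in Bt, against 16962.5 and 16887 in GF. Of all these lists, 0 markers were at or below the floor on all GeneChips. Every comparison with GF below shares these 2 GeneChips and cannot be made without them. The part of these differences in the results was not tested. The comparisons among Bt, Bl and Bt/Bl use no GF signal and were also run without the GF GeneChips.

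Of the members with a probe set, 5 lie side by side on chromosome 13 of the mouse genome (coordinates and sequences from RefSeq, build GRCm38.p6). The order there is Akr1c14 (chr13:4048991-4090560, plus strand), Akr1c18 (chr13:4132615-4150646, minus strand), Akr1c13 (chr13:4191168-4205604, plus strand), Akr1c19 (chr13:4233503-4248361, plus strand) and Akr1c12 (chr13:4268172-4279399, minus strand). Akr1c6, Akr1c20, Akr1c21 and Akr1e1 follow, so that 9 aldo-keto reductase genes fill 560.2 kb. Akr1b8 (chr6:34354146-34368461, plus strand) lies with Akr1b3, Akr1b10 and Akr1b7 within 119.2 kb of chromosome 6, and Akr1a1 (chr4:116636510-116651674, minus strand) lies apart on chromosome 4.

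Akr1c12 and Akr1c13 are close copies, and their shared probe set cannot tell them apart. The likeness reaches the 250 bases before the start site that the RefSeq promoter table gives for each gene, in which 235 of 254 aligned columns were identical (92.5%). Both are shown to make this visible, on the strand of the gene, with capitals for the 19 columns in which a base differed from the other copy or was missing in it (Akr1c12 at chr13:4279400-4279649, minus strand, and Akr1c13 at chr13:4190937-4191186, plus strand). The last 19 bases of the Akr1c13 stretch lie inside the gene bounds given above.
Akr1c12: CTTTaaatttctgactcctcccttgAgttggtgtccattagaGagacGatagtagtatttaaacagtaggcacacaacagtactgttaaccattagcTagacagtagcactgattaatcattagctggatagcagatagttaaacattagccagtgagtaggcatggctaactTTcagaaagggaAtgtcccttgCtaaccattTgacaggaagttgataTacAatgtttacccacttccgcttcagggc
Akr1c13: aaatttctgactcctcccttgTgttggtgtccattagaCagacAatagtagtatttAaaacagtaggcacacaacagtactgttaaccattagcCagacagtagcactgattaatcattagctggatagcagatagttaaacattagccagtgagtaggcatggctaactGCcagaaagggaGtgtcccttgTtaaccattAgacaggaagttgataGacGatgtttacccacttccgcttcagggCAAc
The 250 bases before Akr1c18 (chr13:4150647-4150896, minus strand) is shown because the results turn on this gene. It was identical to the stretches of the other 4 Akr1c members in 47.5 to 52.1% of aligned columns.
Akr1c18: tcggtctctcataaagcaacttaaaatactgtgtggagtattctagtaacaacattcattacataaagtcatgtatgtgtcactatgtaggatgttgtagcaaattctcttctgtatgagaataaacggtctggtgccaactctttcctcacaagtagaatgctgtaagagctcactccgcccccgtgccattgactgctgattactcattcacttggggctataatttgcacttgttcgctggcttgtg
Of the 9 members 8 had such a stretch in the table used, and those of Akr1c14 and Akr1c19 lay inside the gene bounds with 250 and 237 of their bases. None of the 8 held the core of the antioxidant response element (TGACNNNGC on either strand), which 10.2% of 32851 stretches of the same length held. Akr1c19 alone held TTCNNNGAA, a STAT site, as TTCCACGAA from 24 to 16 bases before its start site in the table, and so within its gene bounds, against 7.02% of all stretches. Akr1b8 alone held a TATA box, searched as TATAAA on either strand and found on the reverse one, from 159 to 154 bases before the start site, against 12.4% of all. These letters are a description of the sequence only.

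Akr1c18, the hydroxysteroid dehydrogenase that inactivates progesterone in mice, had the widest range of signal among the members. Its probe set 1419136_at had signals of 6584 and 6390.4 in Bt, 2747 and 3527 in Bl, 2657 and 2279.7 in Bt/Bl, and 674 and 1236 in GF. No 2 states overlapped, and the order of the states was GF, Bt/Bl, Bl and Bt from low to high. The means were 6487 ± 137 in Bt, 3137 ± 551 in Bl, 2468 ± 267 in Bt/Bl and 955 ± 397 in GF (SD, n = 2 amplifications of 1 pool). Relative to GF, the log2 fold change was 2.83 in Bt (7.11-fold, 90% interval 4.24 to 11.9), 1.77 in Bl (3.41-fold, 2.03 to 5.72) and 1.43 in Bt/Bl (2.70-fold, 1.61 to 4.52), each with an SE of 0.43. The value in Bt is the one the gene was chosen by, and it is given as a description with no test. In the fit across all probe sets the values in Bl and Bt/Bl did not pass (limma, adjusted p = 0.131 and 0.397). These comparisons share the GF GeneChips, which differed 1.83-fold on this probe set.

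Among the colonized states the same gene was highest in Bt. This uses the Bt GeneChips by which it was chosen and is a description. Its signal in Bt/Bl was 2.64-fold below that in Bt (log2 fold change -1.40, SE 0.43), and in Bt it was 2.08-fold above that in Bl (1.06, SE 0.43). Bt/Bl and Bl lay close together, with a log2 fold change of -0.34 (SE 0.43) and a 90% interval from 0.472-fold to 1.33-fold, although the duplicates did not overlap. None of these 3 differences passed with limma, with adjusted p = 0.279, 0.325 and 0.787. Without the GF GeneChips the fold changes were the same and the adjusted p = 0.183, 0.203 and 0.712. The signal of mice with both species was below what the 2 mono-associations would give if their fold changes multiplied, with a log2 value of -3.17 (SE 0.60). That value contains the difference the gene was chosen by and is given with no test.

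**Figure D1:**
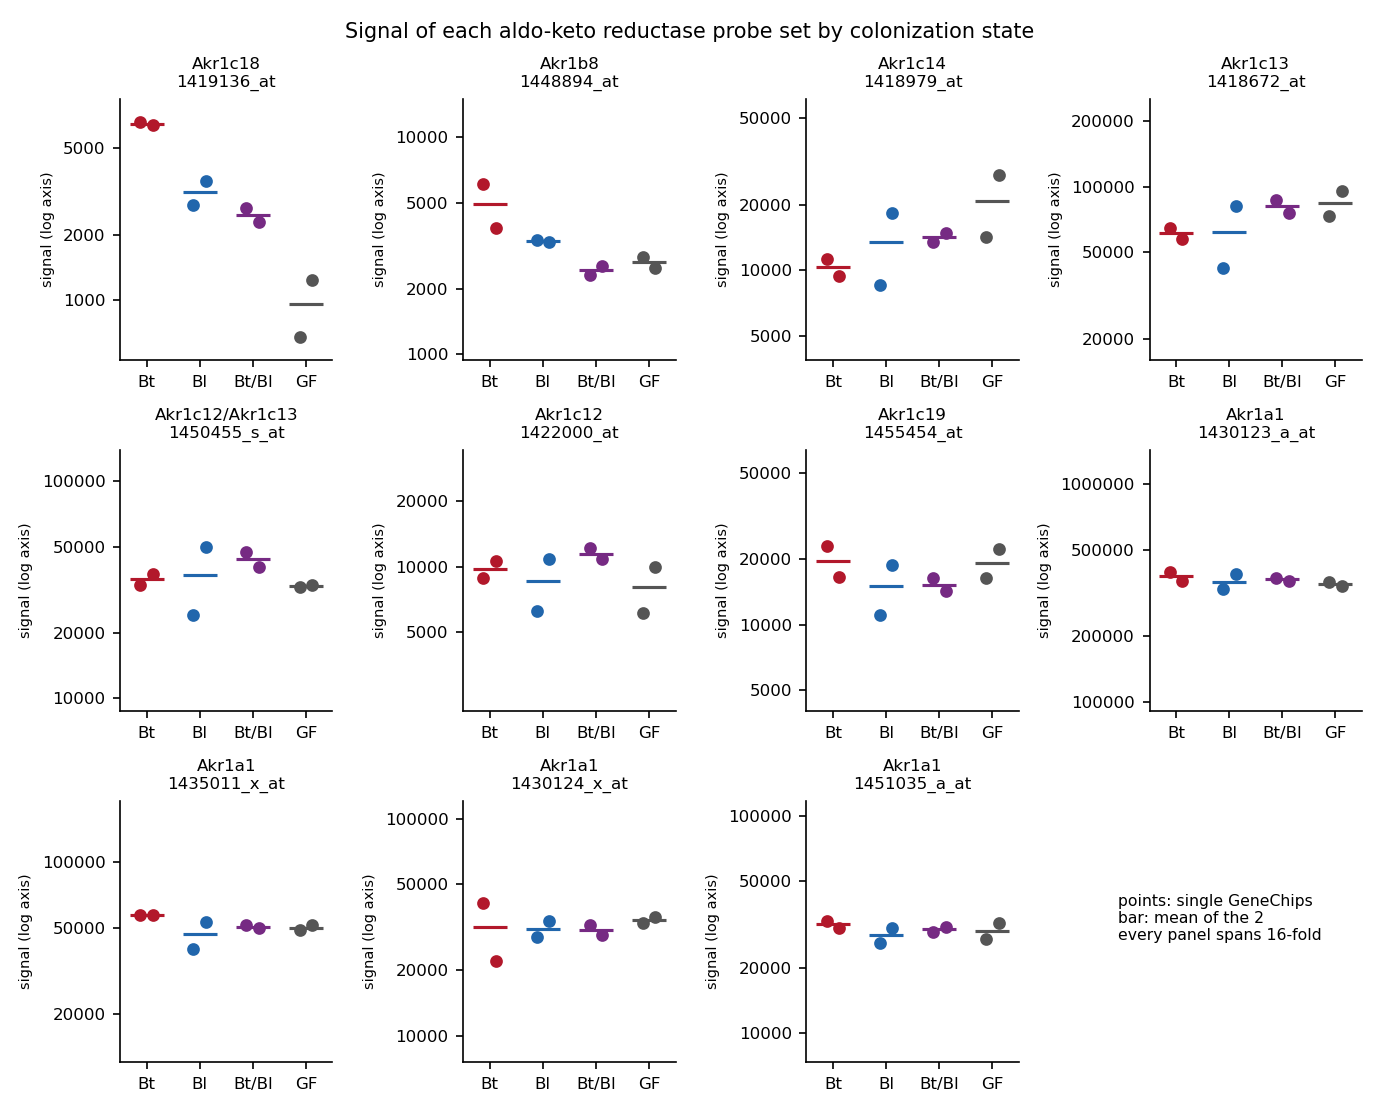
Signals of the 11 probe sets on each GeneChip (vertical log axes that each span 16-fold, no unit) in Bt, Bl, Bt/Bl and GF. Points are single GeneChips and bars are means of 2. Akr1c18 had signals from 674 to 6584 with no overlap between states, while the state means of the 4 Akr1a1 panels lie close together.

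Akr1b8, a reductase of retinal and lipid aldehydes found in the mouse intestine, had the next widest range of state means. Probe set 1448894_at had signals of 6060.1 and 3802 in Bt, 3350.2 and 3308 in Bl, 2324 and 2550.2 in Bt/Bl, and 2809.5 and 2508 in GF. Bt was above every other state on both of its GeneChips, and Bl lay above Bt/Bl and GF, which overlapped. The means were 4931 ± 1597 in Bt, 3329 ± 29.7 in Bl, 2437 ± 159.9 in Bt/Bl and 2659 ± 213 in GF (SD, n = 2). The log2 fold change was 0.85 in Bt against GF (1.81-fold, SE 0.37, limma adjusted p = 0.469), 0.33 in Bl against GF (-0.02 with all GeneChips scaled to the same median) and -0.12 in Bt/Bl against GF. In Bt/Bl it was -0.98 against Bt (SE 0.37, adjusted p = 0.353) and -0.45 against Bl. None of these values passed the threshold.

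Akr1c14, a hydroxysteroid dehydrogenase that converts dihydrosteroids, ran the other way. Probe set 1418979_at had signals of 11291 and 9391 in Bt, 8596.5 and 18347 in Bl, 13476 and 14853 in Bt/Bl, and 14288.5 and 27519 in GF. Bt lay below GF and below Bt/Bl without overlap, while Bl overlapped with every other state. The log2 fold change against GF was -0.95 in Bt (1.93-fold lower, SE 0.34, limma adjusted p = 0.365), -0.66 in Bl and -0.49 in Bt/Bl. The 2 GF GeneChips differed 1.93-fold on this probe set and the 2 Bl GeneChips 2.13-fold. The log2 fold change in Bt was -0.47 without GF 9129 and -1.42 without GF 9128.

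Akr1c13 and Akr1c12, dehydrogenases of the same subfamily, have 1 probe set each and 1 in common. The Akr1c13 probe set 1418672_at had signals of 64896 and 57217.5 in Bt, 42327 and 81670.1 in Bl, 87131 and 75733 in Bt/Bl, and 73121 and 95064 in GF. Only Bt stood clear of GF and of Bt/Bl, below both. Its log2 fold change against GF was -0.45 in Bt (SE 0.28, limma adjusted p = 0.669), -0.50 in Bl and -0.04 in Bt/Bl. The value in Bl was -0.03 without Bl 9134 and -0.98 without Bl 9135.

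The Akr1c12 probe set 1422000_at had signals of 8873 and 10671 in Bt, 6283 and 10915 in Bl, 12160.3 and 10864 in Bt/Bl, and 6137 and 10014 in GF. Bt/Bl was above GF and above Bt on both GeneChips, by log2 fold changes of 0.55 against GF (SE 0.31, adjusted p = 0.772) and 0.24 against Bt. The shared probe set 1450455_s_at had signals of 33142 and 37532 in Bt, 24265 and 50012.5 in Bl, 47219.9 and 40397 in Bt/Bl, and 32572 and 33095 in GF. It was likewise highest in Bt/Bl, with a log2 fold change of 0.41 against GF (SE 0.28, adjusted p = 0.843), 0.10 in Bt and 0.09 in Bl. The Akr1c13 probe set and the shared one thus had opposite signs in Bt and in Bl against GF, but with all GeneChips scaled to the same median or 75th percentile the shared one had a negative sign too. How the 2 transcripts share the signal of 1450455_s_at is uncertain, and none of these values passed.

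Akr1c19, a further dehydrogenase of the same subfamily, had signals of 22928 and 16540.5 in Bt, 11097 and 18902 in Bl, 16325 and 14250.5 in Bt/Bl, and 16362 and 22269 in GF (1455454_at). Bt and GF were alike in mean, with a log2 fold change of 0.03 (SE 0.28, 90% interval 0.728-fold to 1.43-fold). It was -0.40 in Bl and -0.32 in Bt/Bl against GF, with limma adjusted p = 0.612 and 0.883.

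Akr1a1, aldehyde reductase, had 4 probe sets. The brightest, 1430123_a_at, had signals of 395300 and 358929 in Bt, 328791 and 385733 in Bl, 372356 and 359228 in Bt/Bl, and 355838 and 340049.6 in GF. Both Bt and Bt/Bl lay above GF without overlap, by log2 fold changes of only 0.11 and 0.07 (SE 0.28), and that of Bt was below 0 with all GeneChips scaled to the same median or 75th percentile. The state means of this probe set ranged over 0.11 on the log2 scale. The suffix of 1430124_x_at and 1435011_x_at marks probes that may also bind other transcripts. Their log2 fold changes against GF were -0.18 and 0.20 for Bt, -0.14 and -0.11 for Bl, and -0.15 and 0.02 for Bt/Bl. For the fourth probe set, 1451035_a_at, they were 0.10, -0.06 and 0.02 in the same states. On 1430124_x_at the 2 Bt GeneChips differed 1.85-fold, more than any 2 state means of the gene.

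**Figure D2:**
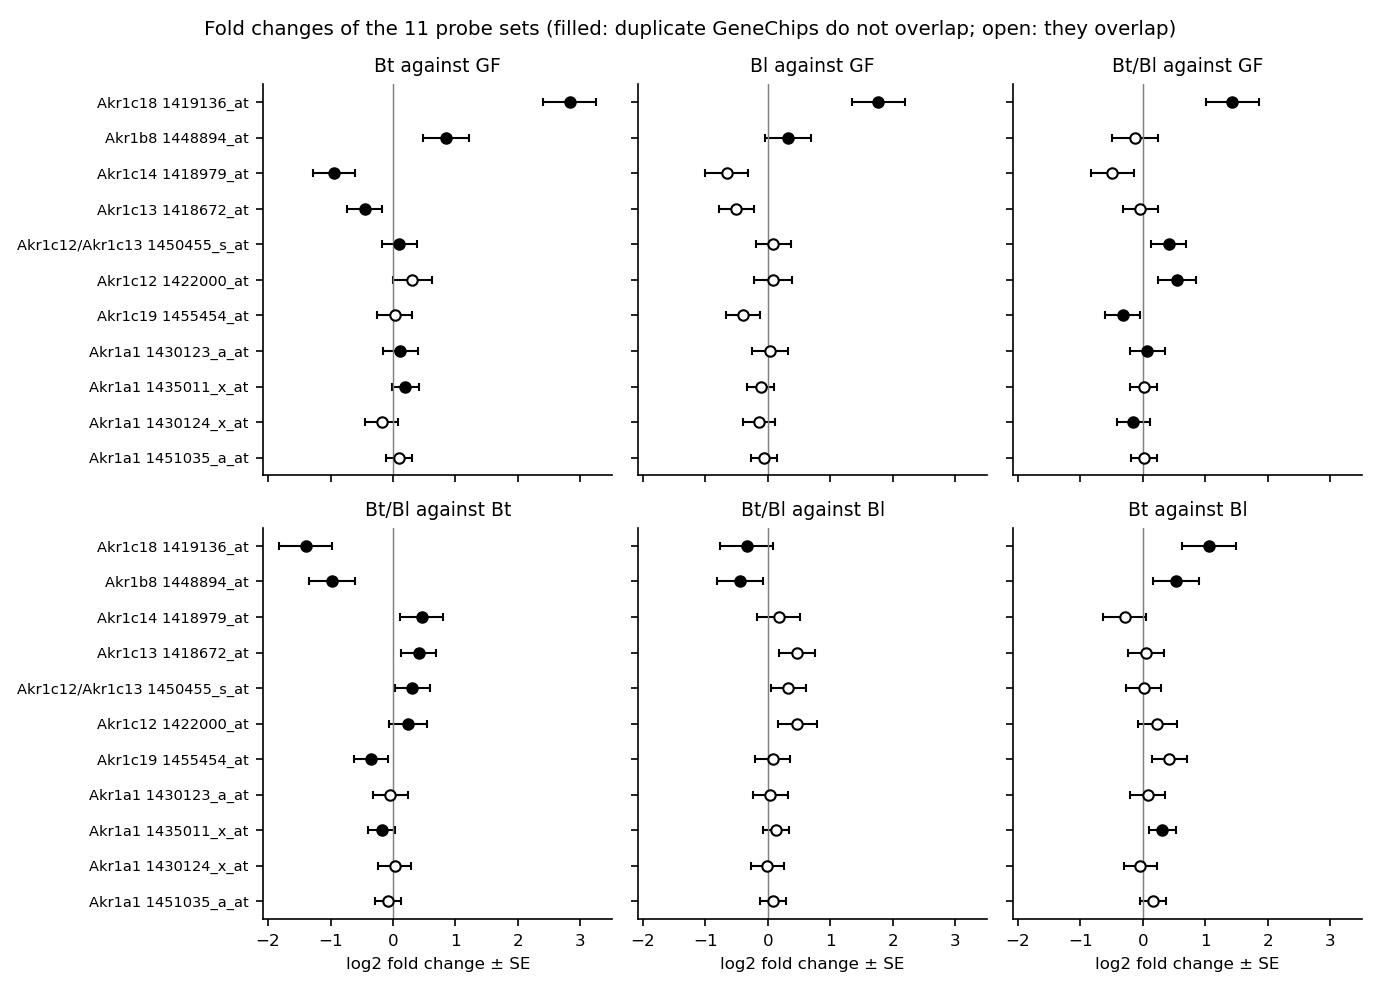
Log2 fold changes of the 11 probe sets (horizontal axis, bars are 1 SE of the limma fit) in the 6 comparisons of states. Filled points mark probe sets whose duplicate GeneChips did not overlap between the states. Akr1c18 lies farthest from 0 in the 3 comparisons with GF, at 2.83, 1.77 and 1.43, and Akr1b8 and Akr1c18 lie on the negative side in Bt/Bl against Bt.

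Counted over the members, 1 of 11 probe sets passed at an adjusted p under 0.05 in Bt against GF, where 0.169% of the 24865 probe sets tested did so. That one was Akr1c18, through the value it was chosen by, and the count shows nothing further about the members. Under 13 of 17 alternative settings it was not past the threshold, among them each one that left out 1 of the 8 GeneChips, with log2 fold changes from 2.39 (without GF 9128) to 3.27 (without GF 9129). With limma 0 members passed in Bl against GF (0.137% of all), in Bt/Bl against GF (0.197%), in Bt/Bl against Bt (0.0483%), in Bt/Bl against Bl (0.0563%), in Bt against Bl (0.0442%) and in the excess, the log2 fold change of Bt/Bl minus those of Bt and Bl, all against GF (0.113%). At an unadjusted p under 0.05 the members were 2 higher and 1 lower in Bt against GF, where 9.49% of all probe sets were past it in either direction. They were 1 higher and 0 lower in Bl (11.7% of all) and in Bt/Bl (7.39%) against GF, 0 higher and 2 lower in Bt/Bl against Bt (10.5%), 0 in Bt/Bl against Bl (11.8%), and 1 higher in Bt against Bl (11.9%). In the excess they were 2 higher and 2 lower (12% of all), namely Akr1c13 at 0.92 (SE 0.40) and Akr1c14 at 1.12 (SE 0.48) above, and Akr1b8 at -1.31 (SE 0.52) and Akr1c18 below.

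By the criterion of a lower 90% bound of the fold above 2 with a signal difference above 10, Akr1c18 was the 1 member higher in Bt (1.62% of all probe sets) and the 1 higher in Bl (2.26%), and 0 members were higher in Bt/Bl (0.752%) against GF. In Bt this was fixed by the choice of the gene and in Bl it shares the GF GeneChips with that choice, so nothing is read from it. Duplicates that did not overlap between states were common on these GeneChips. In Bt against GF they were found for 7 of the 11 member probe sets, 5 higher and 2 lower (40% of all probe sets). They were found for 2 member probe sets in Bl (41.3%), both higher, and for 6 in Bt/Bl (41%), 4 higher and 2 lower, against GF. In Bt/Bl against Bt the count of probe sets was 8, 4 in each direction (43%). In Bt/Bl against Bl it was 2, both lower (42.7%), and in Bt against Bl it was 3, all higher (38%). The median log2 fold change of the 11 probe sets was 0.10 for Bt, -0.06 for Bl and 0.02 for Bt/Bl against GF, beside 0.02, 0.05 and 0.01 over all probe sets tested. All 11 passed the filter on dim probe sets and none fell below the floor on any GeneChip.

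**Figure D3:**
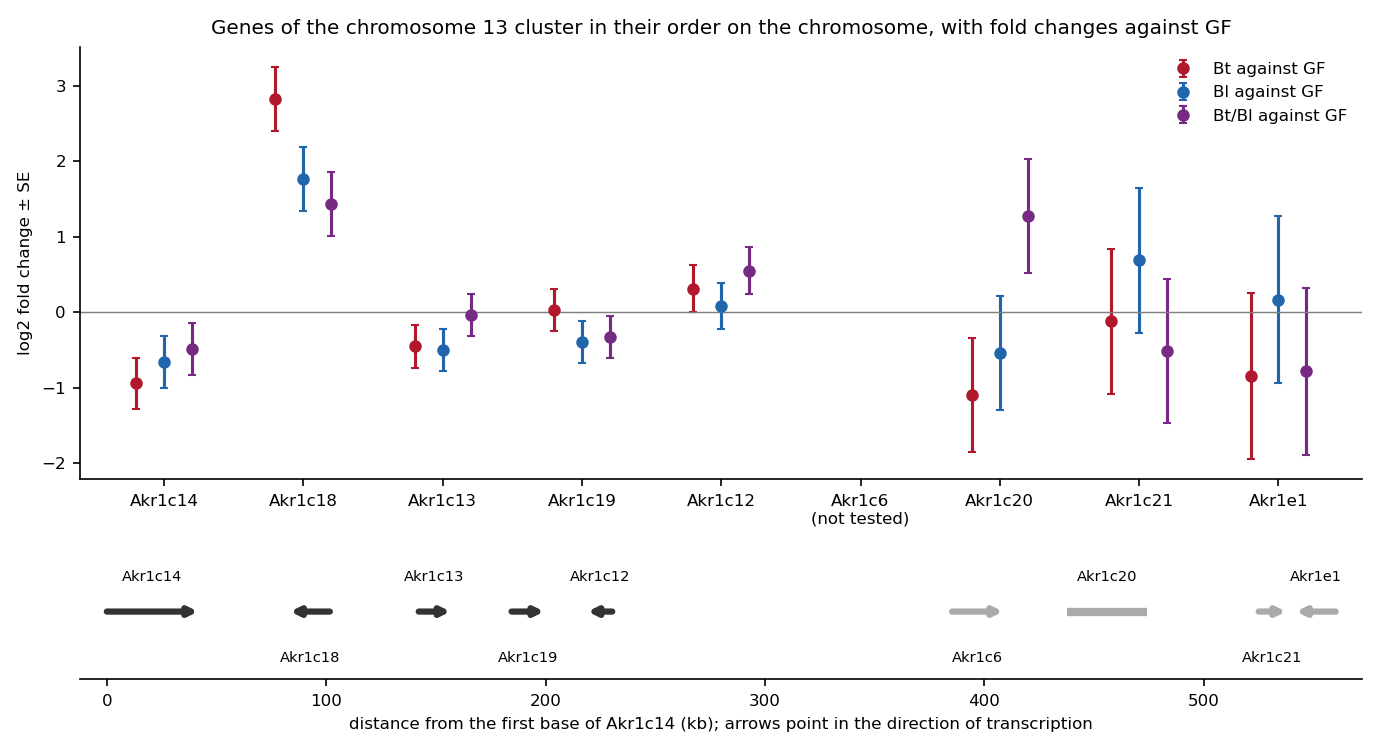
Log2 fold changes against GF (vertical axis, bars are 1 SE) of the 9 genes on chromosome 13 in their order along it, by the brightest probe set tested, with the extent of each gene below as distance from the first base of Akr1c14 (dark: members; grey: other genes; the direction of Akr1c20 was not given). Akr1c18 lies above 0 in all 3 states and its neighbour Akr1c14 below 0, and no probe set of Akr1c6 was bright enough to test.

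On chromosome 13, the genes on either side of Akr1c18 had the opposite sign in Bt. Akr1c18 lies between Akr1c14 and Akr1c13, at 42054 and 40521 bases from them, and in Bt against GF the log2 values in this order were -0.95, 2.83 and -0.45. Akr1c19 and Akr1c12, the next members, had 0.03 and 0.31. These are the brightest probe sets of each gene, and the value of Akr1c18 is the one it was chosen by. The values of Akr1c14 and Akr1c13 did not pass (limma, adjusted p = 0.365 and 0.669). The probe set shared by Akr1c12 and Akr1c13 had 0.10 in Bt.

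The members also differed in how their signals varied over single GeneChips. Across the 8 GeneChips, Pearson's r of the log2 signals was 0.87 between Akr1c13 and Akr1c14, 0.81 between the Akr1c12 probe set and the shared one, 0.68 between the Akr1c13 probe set and the shared one, and 0.68 between Akr1c18 and Akr1b8. Akr1c18 had r = -0.37 with Akr1c13 and -0.52 with Akr1c14. These 8 points are pairs of amplifications of 4 pools and share their scaling and RNA quality. Members also shared differences between the duplicates of 1 pool. In Bl, 9135 was above 9134 for 10 of 11 member probe sets, and in GF 9129 was above 9128 for 9 of 11. Over all probe sets tested this held for 46.4% in each state. The duplicates of a member probe set differed by up to 2.13-fold in Bl, 1.93-fold in GF, 1.85-fold in Bt and 1.17-fold in Bt/Bl.

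The genes whose log2 signals followed Akr1c18 most closely over the 8 GeneChips, of 12937 genes, were Triqk (r = 0.97), Chgb (0.97), a granule protein of endocrine cells, H2-T3 (0.96), the thymus leukemia antigen of intestinal epithelium, Wfdc18 (0.96) and Dbp (0.95), a transcription factor with a daily rhythm. Dbp averaged 24028 in Bt, 16099 in Bl, 8721 in Bt/Bl and 3432 in GF, and Chgb 9877 in Bt, 7001 in Bl, 6509.5 in Bt/Bl and 4559 in GF. For Akr1b8 they were Il17re (0.97), Ankef1 (0.95), Abhd4 (0.94), Slc27a2 (0.94) and A930005H10Rik (0.93). For Akr1a1 by its brightest probe set they were Olfr78 (0.95), Cryz (0.93), Aprt (0.92), Myh7b (0.92) and Tmem161a (0.91). Such values are the highest of many and are given as a description with n = 8 GeneChips.

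**Figure D4:**
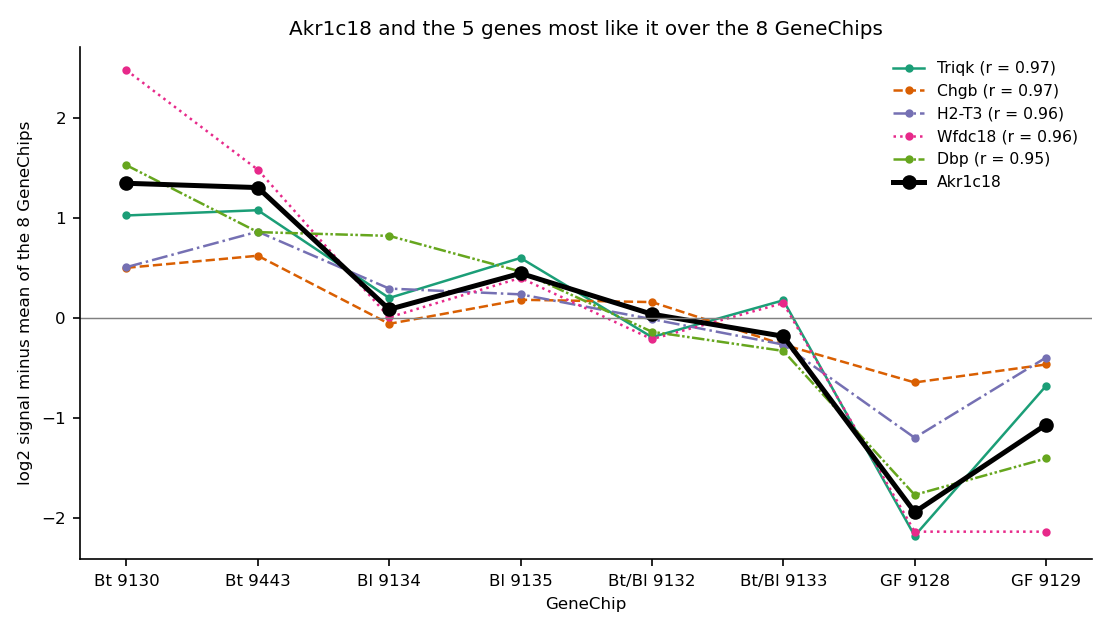
Log2 signal minus its mean over the 8 GeneChips (vertical axis) for Akr1c18 and the 5 genes most like it. Each point is 1 GeneChip, and the lines only join points of a gene. All 6 genes are highest in Bt and lowest in GF, and r with Akr1c18 is 0.95 to 0.97.

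Of the other aldo-keto reductases, 8 genes had 16 probe sets, of which 11 were bright enough to test. With limma 0 of these passed in any comparison, where 0.0442% to 0.197% of all probe sets did. At an unadjusted p under 0.05 there was at most 1 in each direction in a comparison. Of all probe sets, 7.39% to 12% were past it in either direction. Akr7a5, which reduces aldehydes formed from aflatoxin, was the one with a bright probe set: 1438315_x_at had signals of 26467 and 16969.6 in Bt, 20284 and 17905 in Bl, 14416 and 17363 in Bt/Bl, and 17475 and 16715 in GF. The rest were dim, and some had duplicates far apart, such as Akr1e1, anhydrofructose reductase, with 1887 and 68.3 in Bt on 1417826_at. Akr1c20 on 1425387_at had 985 and 778 in Bt/Bl, against 120.4 to 427 on the other 6 GeneChips. It did not pass in Bt/Bl against Bt (log2 fold change 2.37, SE 0.75, limma adjusted p = 0.284). The second Akr1c20 probe set, 1422061_at, was too dim to test and was not high in Bt/Bl. It had 65.1 and 31.7 there, against 39.5 to 563.7 on the other 6 GeneChips. Akr1d1, the steroid reductase of bile acid synthesis, had 607 and 826 in Bt on 1455100_at. There it lay below the floor of 144.7 in both GF and both Bt/Bl GeneChips and in Bl 9134. Its other probe set, 1425771_at, did not share this for GF and Bt/Bl. It had 615 and 1237 in Bt, 857 and 503 in GF, and 394.5 and 932 in Bt/Bl, which overlapped. In Bl it had 144.1 and 285. On both Akr1d1 probe sets Bt lay above Bl without overlap. Akr1c6, a hydroxysteroid dehydrogenase of the liver, had at most 356 on any GeneChip and was not tested.

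Genes that work in the same pathways were read from 4 lists by their brightest probe sets, and none of them passed with limma in any comparison. Of 19 targets of the oxidative stress factor Nrf2, 13 were tested, with a median log2 fold change of 0.24 for Bt, 0.24 for Bl and -0.08 for Bt/Bl against GF. At an unadjusted p under 0.05 there were 2 higher and 1 lower in Bt, 1 lower in Bl and 1 higher in Bt/Bl, where 9.49%, 11.7% and 7.39% of all probe sets were past it in either direction. The highest value in Bt was 2.01 (SE 0.96) for Slc7a11, the cystine transporter, which was not among the 2 past that p. Its GF signals were dim, at 405 and 163.5. Of 25 enzymes of steroid and prostaglandin metabolism 19 were tested, with medians of 0.14 for Bt, -0.07 for Bl and -0.17 for Bt/Bl against GF. At that p 3 were higher and 1 lower in Bt, 1 higher and 1 lower in Bl, and 4 lower in Bt/Bl. Of 19 enzymes of aldehyde and retinal metabolism 15 were tested, with medians of 0.18, 0.22 and 0.03 in the same states. At that p there was 1 higher in each state, with 1 lower for Bt, 2 for Bl and 3 for Bt/Bl. Aldh1a7, an aldehyde dehydrogenase, was lowest in all 3 states, at -0.92 for Bt, -1.23 for Bl and -1.76 for Bt/Bl. Of 9 genes of the polyol and glucuronate pathway 4 were tested, with medians of 0.23 in Bt and -0.17 in Bl. In any comparison, 0 were past an unadjusted p of 0.05. The member Akr1a1 is among these 4, so its own value enters the medians of this list. Cbr1 was counted in both the steroid and the aldehyde list. In Bt/Bl against Bt these 4 lists had medians of -0.37, -0.32, -0.49 and -0.11, with 0 higher and 3, 3, 5 and 0 lower at that p (10.5% of all probe sets in either direction). Over all 12937 genes the median was 0.005 for Bt, 0.0001 for Bl and 0.0032 for Bt/Bl against GF, and -0.0026 for Bt/Bl against Bt. With all GeneChips scaled to the same median, the 4 lists had medians of 0.03, -0.07, -0.03 and 0.03 for Bt, of -0.10, -0.41, -0.12 and -0.52 for Bl, and of -0.13, -0.22, -0.02 and -0.05 for Bt/Bl against GF, beside -0.20, -0.32 and -0.04 over all probe sets tested. In Bt/Bl against Bt they were then -0.21, -0.16, -0.33 and 0.05, beside 0.15 over all probe sets. The signs of several list medians thus turned with the scaling. The single genes named from these lists were picked as extremes after their values were seen.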

How the data were processed

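Laser-captured cecal epithelium of 4 colonization states (Bt, Bl, Bt/Bl and GF) was measured on 8 genome-wide mouse GeneChips, 2 amplifications of 1 pool of 4 mice per state. The deposited values were linear signal intensities per probe set that the authors had obtained with MAS5, with about the same trimmed mean (near 1500) on every GeneChip. They came without detection calls, and the software version is not given in the sources used here. The paper describes dChip for its own analysis. Precision is limited by having 2 GeneChips per state.

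A floor of 144.7 (25th percentile of the table) was set under all signals before log2 was taken. Probe sets were tested where both GeneChips of a state were above 583.1, the median of all values, and the 64 control probe sets were left out, which left 24865. All 8 GeneChips entered one limma 3.58.1 fit in R 4.3.3 (lmFit, contrasts.fit, and eBayes with an intensity trend; 4 residual degrees of freedom), with Benjamini-Hochberg adjustment over all probe sets tested in each of 7 comparisons and a threshold of 0.05. The second criterion was a lower 90% confidence bound of the fold above 2 with a signal difference above 10, thresholds taken from the methods of the study. The bound here came from the limma fit. The study also required detection calls and used a criterion on replicate variation, and neither was applied here. The steps were tested on simulated data.

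The members, the 4 pathway lists and the marker lists were chosen with earlier results of these data known. Named were all probe sets of the members and of 8 other aldo-keto reductases, up to 4 called genes of each list (0 were called), and the 5 genes most correlated with the most variable member of each subfamily. A gene was represented by its brightest probe set. Probe sets were named from the platform annotation, and positions and sequences were taken from RefSeq (GRCm38.p6). The alternatives changed the scaling, the floor, the filter, the intensity trend, the probe set of a gene or the samples fitted, and single GeneChips were omitted. The second GeneChip type and the bacterial GeneChips were not used here.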

Additional observations from a re-analysis of the deposited data

How the results depend on the processing

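Of the 77 member fold changes (11 probe sets in 7 comparisons), 36 kept their sign under all alternatives tried, among them all 7 of Akr1c18. Scaling all GeneChips to the same median moved the median of all probe sets on the log2 scale, relative to GF, by -0.21 for Bt, by -0.34 for Bl and by -0.05 for Bt/Bl, and the 75th percentile moved it by -0.18, -0.26 and -0.04. The number of members past the adjusted threshold in Bt against GF, 1 as reported, was 0 with either of these scalings, with no filter, with no intensity trend and with only the GeneChips compared. It stayed at 1, Akr1c18, with quantile normalization, with no floor, with the floor at the median and with the filter at the 75th percentile. With any 1 GeneChip left out it was 0 (lowest 0, highest 0), in fits that assume the lone GeneChip of a state varies as those of the other states do. The fold change of Akr1c18 in Bt against GF ranged from 2.39 to 3.27 over all alternatives. In Bl against GF the count of 0 became 1, Akr1c18, by the 90% bound. In the other 5 comparisons no member passed under any alternative. The cause was not tested. No paired analysis was possible because each GeneChip has a number of its own and none is shared between states. Without the GF GeneChips, an alternative added after seeing the data, the differences among the colonized states kept their values and 0 members passed. Probe sets near the floor, such as those of Akr1c6, have no measured difference here.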
